A study of Mus musculus with 12 samples.

Results

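The urea cycle genes are the 6 genes of the enzymes that turn ammonia into urea in the liver: Nags, Cps1, Otc, Ass1, Asl and Arg1. They were taken by symbol from a table of 25611 genes, in which each symbol had 1 row, and all 6 passed the low-count filter that left 13190 genes. RNA-seq was performed on whole livers of 12 mice, all male C57BL/6J of 8 to 10 weeks, in 3 groups of 4. Sham mice had the abdominal incision alone. CLP mice underwent cecal ligation and puncture, a model of polymicrobial sepsis, and CLP+DCA mice underwent the same surgery and received dichloroacetate (DCA, an inhibitor of the pyruvate dehydrogenase kinases) at 25 mg/kg into the peritoneum at 24 hr. All livers were collected 30 hr post-surgery, which was 6 hr after DCA, and all animals were given fluids under the skin. The labels give an injection at that time for all samples, without naming what sham and CLP mice received.

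The cycle begins in the mitochondria of hepatocytes. Nags makes N-acetylglutamate, the activator that Cps1 requires. Cps1 joins ammonia and bicarbonate into carbamoyl phosphate, and Otc transfers the carbamoyl group to ornithine to give citrulline. The remaining steps are cytosolic: Ass1 condenses citrulline with aspartate, Asl splits argininosuccinate into arginine and fumarate, and Arg1 releases urea and returns ornithine. The pathway is strongest in hepatocytes around the portal vein, is induced by glucagon and glucocorticoids, and clears the ammonia of amino acid breakdown. Loss of its enzymes causes hyperammonemia.

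The depth per mouse ran from 24436513 to 44266819 counted reads. Levels are given in CPM, read counts scaled to library totals after TMM normalization, and a gene was called differentially expressed (DEG) at a false discovery rate (FDR) of 0.05 over all tested genes in edgeR's quasi-likelihood test, fitted to all 12 mice. In CLP versus sham, 367 genes were called, of which 216 were higher in CLP (58.9% of the calls, against 47.8% with library size alone as the scaling). CLP+DCA replicate 3 stood apart from its group. Its log2 CPM over all tested genes differed from the mean of the other CLP+DCA mice by a root mean square of 0.990, where the 11 other mice lay between 0.291 and 0.608 from their own groups, and the mouse nearest to it was CLP replicate 2 (0.519). Differences of Otc, Cps1, Asl, Arg1 and Nags are given with and without this mouse. The comparisons share mice: both comparisons with sham use the same sham mice, and both comparisons of CLP use the same CLP mice. In whole liver, fewer hepatocytes and less of an RNA per hepatocyte cannot be told apart.

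The 6 genes took 0.462 to 0.752% of all reads in sham, 0.347 to 0.483% in CLP and 0.238 to 0.609% in CLP+DCA. In sham, Cps1 held 55.2 to 64.9% of these reads and Arg1 20.3 to 25%. In CLP, Cps1 held 31.6 to 53.6% and Arg1 33.2 to 57.1%, without overlap with sham for either gene. Both are shares of the same reads, so they are not separate results. In normalized levels of the genes themselves, given below, CLP and sham overlapped for both. The extreme was CLP+DCA replicate 3, where Arg1 held 69.8% and Cps1 17.7% of the reads of the cycle.

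Per kilobase of exon, the order of the sham levels was Arg1 (840.6 ± 142.3 CPM per kb), Cps1 (606.1 ± 207.2), Asl (151.4 ± 22.4), Otc (97.0 ± 8.75) and Nags (46.1 ± 4.26; all mean ± SD, n = 4). Arg1 and Cps1, neighbours in this order, overlapped between sham mice, although Arg1 was the higher in each of the 4. Each of the lower steps was without overlap. In CLP, the order of Otc and Nags was no longer kept: Otc per kb was the higher in 1 of 4 CLP mice, against 4 of 4 sham and 3 of 4 CLP+DCA mice. Ass1 was left out of this order because few reads were assigned to it and its locus is shared with a second gene in the table.

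Ass1 (NCBI Gene 11898, mm10 chromosome 2 from 31470270 to 31520670, plus strand), the enzyme of the argininosuccinate step and an abundant liver transcript, had 16 to 33 reads in sham, 2 to 21 in CLP and 1 to 22 in CLP+DCA. Per kilobase of exon, its mean in sham was 0.406 CPM, against 151.4 CPM of Asl, the next enzyme. The table places a second gene, Gm5424, on the same strand from 31470308 to 31520629. That span covers all of the Ass1 span but 38 bases at the 5′ end and 41 bases at the 3′ end, and Gm5424 has 0 reads in all 12 mice. RefSeq lists Gm5424 as a pseudogene on chromosome 10, from 62071022 to 62072571. Counting programs of this kind leave out, by default, reads that overlap more than 1 gene. Whether this was the reason for the low number was not tested, since alignments were not used here.

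The likeness of the pair is shown over 100 bases, the read length of the study, by the first of the windows in which their GENCODE M21 transcripts differ most (both in sense orientation). Capitals mark the bases that differ.

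Ass1: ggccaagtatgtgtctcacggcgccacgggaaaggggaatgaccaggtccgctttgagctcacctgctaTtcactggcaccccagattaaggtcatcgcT

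Gm5424: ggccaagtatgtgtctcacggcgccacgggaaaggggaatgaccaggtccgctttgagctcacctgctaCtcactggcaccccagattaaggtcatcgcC

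This stretch, bases 532 to 631 of the Ass1 transcript, lies within its open reading frame of 412 codons (bases 203 to 1441) and holds 2 of the 6 differences in the 1240 bases that align (99.52% identity). Of the 1141 windows of 100 bases in the alignment, 622 (54.5%) held no difference at all. Values of Ass1 below rest on few reads and were not taken as a measure of its mRNA. They are given for completeness, and 5 genes carry the account.

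**Figure D1:**
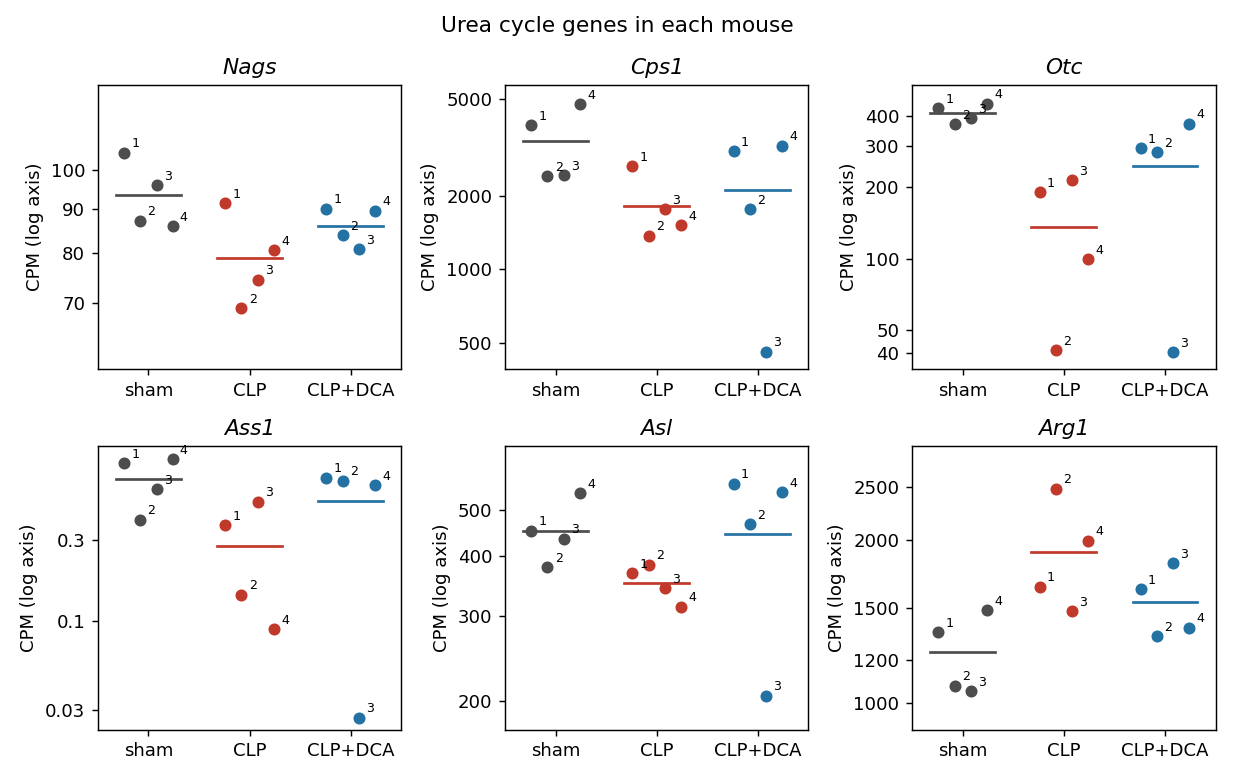
CPM of the 6 urea cycle genes in each mouse (log axis, which differs between panels), in the order of the cycle; numbers are replicate numbers and lines are group means (n = 4). Otc of all 4 CLP mice (41.0 to 213.8 CPM) lies below sham (370.3 to 451.7), and CLP+DCA replicate 3 has the lowest Cps1, Otc, Ass1 and Asl of all mice.

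CLP versus sham addressed what sepsis does to the cycle at the level of RNA. The mitochondrial enzymes and Asl had lower mean values in CLP and the final enzyme, Arg1, a higher one. None of the 6 genes passed the FDR in the fit of all 12 mice, where 2.78% of tested genes did. An unadjusted p under 0.05 was found for 3 of 6 (Otc and Nags lower, Arg1 higher), against 28.6% of tested genes, and the groups did not overlap for 1 of 6 (Otc), against 26.5%. The median log2 fold change of the 6 was -0.62, and -0.36 over the 5 other than Ass1, against 0.02 for all tested genes.

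Otc, the citrulline-forming enzyme (NCBI Gene 18416, chromosome X from 10252305 to 10321024, plus strand), differed most. It had 431.6, 370.3, 391.2 and 451.7 CPM in the 4 sham mice and 190.3, 41.0, 213.8 and 99.3 CPM in the 4 CLP mice. The sham mice lay close together (coefficient of variation 9.02%) and the CLP mice far apart (59.0%), with replicates 2 and 4 lowest. This was 0.331 of sham, a log2 fold change of -1.59 (standard error 0.59), with an adjusted p of 0.115 in edgeR's quasi-likelihood test. Without CLP+DCA replicate 3, a mouse outside this comparison that enters the shared estimate of spread, the same fold change had a standard error of 0.40 and an adjusted p of 0.0197.

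Cps1, the entry enzyme (NCBI Gene 227231, chromosome 1 from 67123027 to 67231267, plus strand), had 3890, 2406, 2429 and 4744 CPM in sham. In CLP it had 2641, 1373, 1766 and 1512 CPM. CLP replicate 1 lay above sham replicates 2 and 3, and the other CLP mice below all sham mice. Cps1 thus differed by -0.89 on the log2 scale (standard error 0.49, edgeR adjusted p = 0.242), and without CLP+DCA replicate 3 the adjusted p was 0.0459.

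Nags, the source of the Cps1 activator (NCBI Gene 217214, chromosome 11 from 102145513 to 102149528, plus strand), varied least. Its CPM were 104.6, 87.2, 95.9 and 86.0 in sham and 91.4, 68.9, 74.5 and 80.6 in CLP, where replicate 1 reached into the sham range. Its log2 fold change was -0.24 (standard error 0.10, edgeR adjusted p = 0.150, and 0.0937 without CLP+DCA replicate 3).

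Asl (NCBI Gene 109900, chromosome 5 from 130011258 to 130024381, minus strand), which releases arginine and fumarate, had 451.9, 379.3, 434.8 and 540.4 CPM in sham. The CLP mice, at 369.1, 384.0, 343.5 and 314.0 CPM, lay close together, and only replicate 2 exceeded the lowest sham mouse. Asl differed by -0.36 on the log2 scale (standard error 0.26, edgeR adjusted p = 0.360, and 0.0602 without CLP+DCA replicate 3).

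Arg1, the arginase that releases urea (NCBI Gene 11846, chromosome 10 from 24915207 to 24927470, minus strand), went the other way. It had 1352, 1079, 1053 and 1483 CPM in sham and 1639, 2482, 1479 and 1993 CPM in CLP. CLP replicate 3 and sham replicate 4 met at nearly the same level, and CLP replicates 2 and 4, the lowest for Otc and Cps1, were the highest of all mice for Arg1. The mean was 1.53 times that of sham in the fit, a log2 fold change of 0.61 (standard error 0.19), with an edgeR adjusted p of 0.0799. Without CLP+DCA replicate 3, the adjusted p was 0.0302.

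In that fit of 11 mice, 3 of 6 genes thus passed the FDR, Cps1 and Otc lower and Arg1 higher, where 23.8% of tested genes passed. DESeq2 on all 12 mice called 2 of 6, Otc (adjusted p = 0.0318) and Arg1 (adjusted p = 0.0176), where 13.4% of tested genes were called. The directions of the 6 genes were the same with RLE factors and with library size alone, a scaling that moved the median of all genes to -0.154. Relative to that median, Otc stood at -1.55 and Arg1 at 0.57 on the log2 scale. The few reads of Ass1 gave -1.18 (standard error 0.67, edgeR adjusted p = 0.254).

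**Figure D2:**
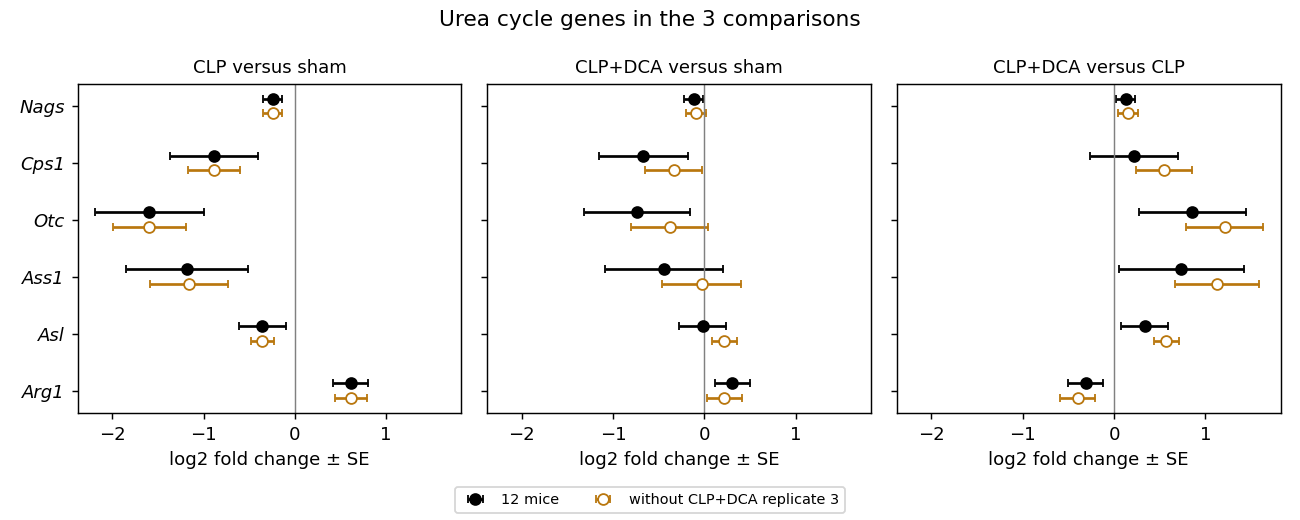
Log2 fold change ± standard error of the 6 genes in the 3 comparisons from edgeR, with all 12 mice (filled) and without CLP+DCA replicate 3 (open). Estimates of CLP versus sham are nearly the same in both fits while their errors shrink (Otc from 0.59 to 0.40), and estimates that involve CLP+DCA shift as well (Asl against CLP from 0.34 to 0.57).

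CLP+DCA versus CLP addressed what DCA changes in operated mice, and CLP+DCA versus sham how far the treated mice are from sham. Of the 6 genes, 0 passed the FDR in either comparison by edgeR, 0 by DESeq2 on all 12 mice, and 0 had an unadjusted p under 0.05. The backgrounds for CLP+DCA versus CLP were 0.00758% past the FDR in edgeR, 0.875% in DESeq2 and 10% at the unadjusted p. Those for CLP+DCA versus sham were 0.0379%, 1.79% and 13%. The groups overlapped for all 6 genes in both, where 4.37% and 9.76% of tested genes did not. The median log2 fold change over the 5 genes other than Ass1 was 0.22 against CLP and -0.12 against sham (0.28 and -0.28 with Ass1), where that of all tested genes was 0.01 in both.

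Otc had 292.8, 281.6, 40.2 and 372.0 CPM in the 4 CLP+DCA mice. Replicates 1, 2 and 4 lay above every CLP mouse, and replicate 4 reached the lowest sham mouse, whereas replicate 3 was the lowest of the series. Against CLP the log2 fold change was 0.86 (standard error 0.58, edgeR adjusted p = 0.657), and without replicate 3 it was 1.21 (standard error 0.42, adjusted p = 0.0997). Against sham it was -0.74 (standard error 0.58, edgeR adjusted p = 0.578), and -0.38 without replicate 3 (standard error 0.43).

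Cps1 had 3046, 1757, 459 and 3204 CPM. Replicates 1 and 4 lay inside the sham range, and replicate 3 was the lowest of all mice. Against CLP the log2 fold change was 0.22 with all mice (standard error 0.48) and 0.55 without replicate 3 (standard error 0.31, edgeR adjusted p = 0.257). Against sham it was -0.67 (standard error 0.48, edgeR adjusted p = 0.545) and, without replicate 3, -0.34 (standard error 0.31).

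Asl had 565.9, 466.4, 205.2 and 542.9 CPM, with 3 mice above all CLP mice and replicate 3 below them all. Against CLP, the difference on the log2 scale was 0.34 (standard error 0.26, edgeR adjusted p = 0.695). Without replicate 3 it was 0.57 (standard error 0.14, adjusted p = 0.0393), and Asl was then the 1 gene of 6 called in this comparison, where 4.64% of tested genes were. Against sham, Asl stood at -0.02 with all mice (standard error 0.26) and at 0.22 without replicate 3 (standard error 0.14).

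Arg1 had 1621, 1328, 1812 and 1377 CPM, so that the mouse with the lowest Cps1, Otc and Asl had the highest Arg1 of its group. It differed by -0.31 on the log2 scale from CLP (standard error 0.19) and by 0.31 from sham (standard error 0.19), with edgeR adjusted p-values of 0.622 and 0.496. Without replicate 3, Arg1 stood at -0.40 against CLP (standard error 0.19, edgeR adjusted p = 0.199) and at 0.22 against sham (standard error 0.19). Nags, at 90.1, 83.9, 80.8 and 89.6 CPM, differed by 0.13 from CLP (standard error 0.10) and by -0.12 from sham (standard error 0.10). Its values without replicate 3 were 0.16 and -0.09 (standard error 0.11 each). Ass1 had 22, 20, 1 and 20 reads. Without replicate 3, 0 of the 6 genes passed the FDR in CLP+DCA versus sham, where 0.0828% of tested genes did.

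The ratio of 2 genes within a mouse does not depend on how libraries are scaled, so each gene was also set against Arg1. For Otc, log2 ratios of reads were -1.65, -1.54, -1.43 and -1.72 in sham, -3.11, -5.92, -2.79 and -4.33 in CLP, and -2.47, -2.24, -5.50 and -1.89 in CLP+DCA. All 4 CLP and all 4 CLP+DCA mice were below all sham mice. In terms of reads, 2.69 to 3.28 reads fell on Arg1 for each read on Otc in sham, and 6.92 to 60.5 in CLP. The mean difference between CLP and sham was -2.45 on the log2 scale, and that between CLP+DCA and sham -1.44, or -0.61 without CLP+DCA replicate 3. Both differences over all mice had p = 0.0286 in two-sided exact permutation tests, which with 4 against 4 mice can give none smaller.

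The ratios of Cps1, Asl and Nags to Arg1 were also lower in every CLP mouse than in every sham mouse, by 1.47, 0.95 and 0.85 on the log2 scale (exact permutation p = 0.0286 each), as was that of Ass1 on its few reads. All 5 ratios share Arg1, whose own log2 fold change in CLP versus sham was 0.61, where that of Nags was -0.24. They are thus not separate results, and each takes in the rise of Arg1. The share of all tested genes without overlap in their ratio to Arg1 was not counted. Over the 15 ratio tests, 5 genes by 3 comparisons, the Benjamini-Hochberg adjusted value of the 6 exact tests with p = 0.0286 was 0.0714, so that none passed 0.05. No exact p here can be smaller, and 6 of 15 tests at that p are too few for any to pass. The adjusted value therefore says little about a single ratio. In CLP+DCA, the ratio of Asl to Arg1 was -1.52, -1.51 and -1.34 in replicates 1, 2 and 4, inside the sham range of -1.58 to -1.28, and -3.14 in replicate 3. CLP+DCA and CLP overlapped in all 5 ratios. The exact permutation p of that comparison was 0.143 for Nags, 0.229 for Asl, 0.343 for Otc and 0.800 for Cps1. The genes and the ratio to Arg1 were chosen with earlier results of these data known.

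**Figure D3:**
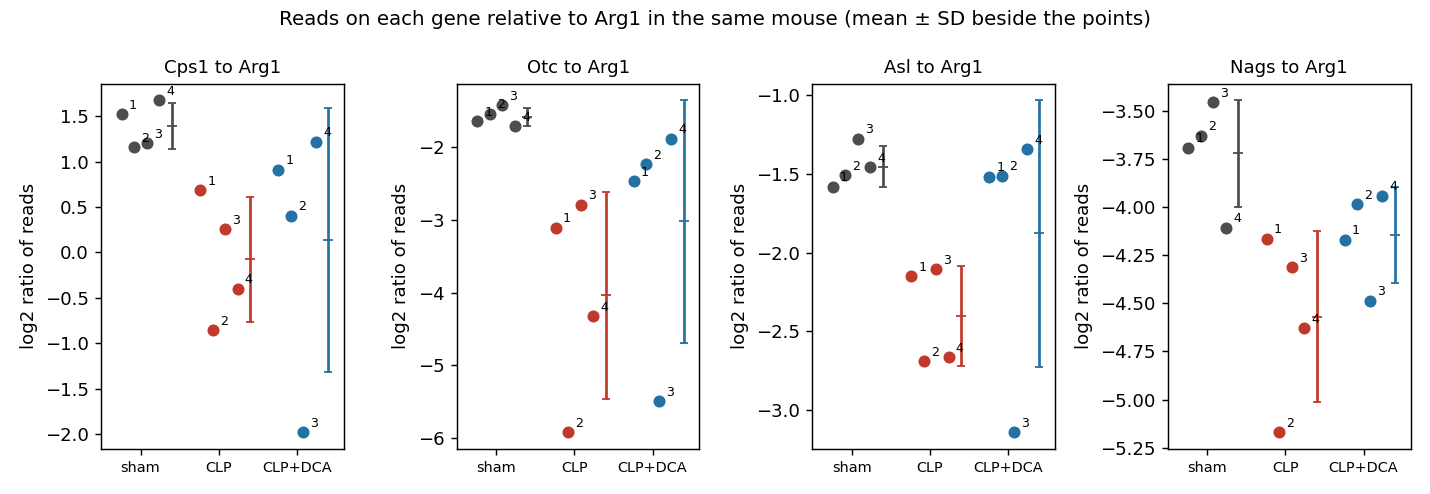
Log2 ratio of the reads on Cps1, Otc, Asl and Nags to those on Arg1 in each mouse, with the replicate numbers and the mean ± SD (n = 4) beside the points; levels differ between panels with transcript length and abundance. All CLP mice lie below all sham mice in each panel, and 3 of 4 CLP+DCA mice lie above all CLP mice for Otc and Asl. The panels share Arg1, whose own log2 fold change in CLP versus sham was 0.61.

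The 6 genes did not share 1 pattern over the mice. With each gene taken relative to its own mean over the 12 mice, the root mean square difference of log2 CPM was smallest between Asl and Nags (0.359), and it was 0.653 between Cps1 and Otc, 1.04 between Cps1 and Arg1 and 1.49 between Otc and Arg1. This measure grows with the spread of each gene, so that 2 genes of small spread lie near each other whatever their shape. The SD over the mice was 0.160 for Nags, 0.351 for Arg1, 0.41 for Asl, 0.88 for Cps1 and 1.25 for Otc. The order of the pairs is therefore not an order of likeness in shape. Nags differed by 0.451 from Arg1, 0.768 from Cps1 and 1.1 from Otc. Asl differed by 0.536 from Cps1, 0.599 from Arg1 and 0.942 from Otc. Among 9087 genes of at least 5 CPM, those nearest to Cps1 were Gnmt (0.271), Abat (0.300), Cth (0.300), Dhtkd1 (0.310) and Hal (0.315). Gnmt methylates glycine, Abat breaks down GABA, Cth cleaves cystathionine and Hal is the histidine ammonia-lyase. Nearest to Otc were Nqo2 (0.180), Per3 (0.188), Slc22a30 (0.192), Sntg2 (0.215) and Ugt2b36 (0.226). For Arg1, whose SD over the mice was 0.351, the nearest were Ccdc125, Dennd5a, Slc10a7, Eogt and Bcl10 (0.127 to 0.140). Asl was nearest to Tstd3, Dtd1, Srbd1, Exd2 and Zfp563 (0.167 to 0.198), whose means were at most 15.2 CPM, and Nags to Edrf1, Dgkq, Mtpap, Akap8l and Dmtf1 (0.0753 to 0.0849, at an SD of Nags itself of 0.160). These are descriptions over 12 mice that differ in group and depth, and they include CLP+DCA replicate 3, the lowest mouse for Cps1, Otc and Asl.

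Promoter sequence was at hand for 3 of the 6 genes, from RefSeq (GRCm38.p6). Those of Otc and Nags are shown because these genes of the same compartment had the widest and the narrowest range over mice. The 250 bases before the start are printed in the sense of the gene, with matches to any of 5 searched motifs in capitals.

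Otc (chrX:10252055-10252304, plus strand): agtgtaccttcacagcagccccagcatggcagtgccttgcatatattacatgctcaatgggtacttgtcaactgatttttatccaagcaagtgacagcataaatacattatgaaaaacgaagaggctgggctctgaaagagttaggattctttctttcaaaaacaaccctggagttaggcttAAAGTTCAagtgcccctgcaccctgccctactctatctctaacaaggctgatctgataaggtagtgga

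Nags (chr11:102145263-102145512, plus strand): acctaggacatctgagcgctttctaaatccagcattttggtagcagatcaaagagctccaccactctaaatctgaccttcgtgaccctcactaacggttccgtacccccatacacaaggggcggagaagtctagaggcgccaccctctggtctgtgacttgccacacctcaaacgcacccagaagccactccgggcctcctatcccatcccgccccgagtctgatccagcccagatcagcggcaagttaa

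Both strands were searched for letters bound by factors known to act on the cycle: AAAGTNCA (HNF4, the hepatocyte nuclear receptor), TTGCNNAA (C/EBP), TGACGTCA (the cAMP response element), TGTTCT (the glucocorticoid receptor) and TTCNNNGAA (STAT). The Otc window held 1 match, to the HNF4 letters, from base -68 to base -61. These letters occur in 3.53% of the 32851 promoter windows of the same length. The Nags and Ass1 windows held none of the 5, which occur in 1.55% (cAMP response element) to 16.1% (glucocorticoid receptor) of all windows. The GC content was 43.6% for Otc, 55.6% for Nags and 75.6% for Ass1. The letters are a description of these windows, not sites.

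Genes around the cycle were described by 4 lists, of which 41 genes were tested. In CLP versus sham, 1 passed the FDR in the fit of all 12 mice, where 2.78% of all tested genes did. It was Slc25a12, a mitochondrial carrier that exports aspartate in exchange for glutamate. It had 13.7, 15.9, 13.1 and 15.7 CPM in sham and 17.7, 28.3, 25.6 and 25.1 CPM in CLP, every CLP mouse being above every sham mouse. This rise of 0.72 on the log2 scale had a standard error of 0.15 (edgeR adjusted p = 0.0385). Slc25a13, the form of this carrier that prevails in liver and supplies aspartate to Ass1, differed by -0.54 (standard error 0.31, edgeR adjusted p = 0.254), with the lowest CPM in CLP+DCA replicate 3 (77.9) and CLP replicate 2 (83.3). In CLP+DCA, Slc25a12 had 16.6, 17.3, 22.7 and 19.9 CPM, and its log2 fold change against CLP was -0.34 (standard error 0.15, edgeR adjusted p = 0.488).

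Of the carriers and enzymes of substrate supply, 12 of 13 genes were tested, 1 was higher in CLP past the FDR (the background being 2.78%) and 0 lower, and the median log2 fold change was -0.22. Gls2, the liver glutaminase that feeds ammonia to Cps1, had 331.0 to 631.1 CPM in sham and 156.0 to 214.9 CPM in CLP, with a log2 fold change of -1.13 (standard error 0.35, edgeR adjusted p = 0.0765, and 0.00491 without CLP+DCA replicate 3). Gpt2, a mitochondrial alanine aminotransferase, had the smallest p of the list in CLP+DCA versus CLP, with 434.7 to 665.0 CPM against 291.4 to 427.3 (log2 fold change 0.50, standard error 0.17, edgeR adjusted p = 0.400), and the second smallest in CLP+DCA versus sham (0.44, standard error 0.17, adjusted p = 0.328).

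Of the genes of arginine and ornithine use, 10 of 13 were tested and 0 passed in any comparison, with a median log2 fold change of 0.19 in CLP versus sham. Slc7a2, the cationic amino acid transporter that brings arginine into hepatocytes, had 445.1 to 1119 CPM in sham and 336.6 to 409.3 in CLP (log2 fold change -0.89, standard error 0.27, edgeR adjusted p = 0.0765). Slc7a7, a subunit of another transporter of basic amino acids, went from 2.11 to 3.34 CPM in sham to 3.60 to 9.29 in CLP (1.27, standard error 0.41, adjusted p = 0.0842 from the same test). Oat, an aminotransferase that breaks down ornithine around the central vein, had the smallest p of the list in CLP+DCA versus CLP, at 433.7, 467.7, 101.7 and 661.6 CPM against 168.6 to 407.1 in CLP (0.71, standard error 0.45, edgeR adjusted p = 0.631). Without CLP+DCA replicate 3, this difference was 1.03 (standard error 0.28, edgeR adjusted p = 0.0560). Aldh18a1, which makes the precursor of ornithine and proline, had it in CLP+DCA versus sham, but 9.34 CPM of replicate 3 stood against 0.954 to 1.68 in its other mice. The second arginase, Arg2, and the inducible nitric oxide synthase, Nos2, had at most 11 and 18 reads in any mouse and were not tested, and neither was Amd1.

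Of the genes of glutamine, ammonia and urea transport, 7 of 10 were tested and 0 passed in any comparison, with a median of -0.47 in CLP versus sham. Rhbg, an ammonium transporter, had 5.09 to 10.8 CPM in sham and 3.48 to 4.47 in CLP (log2 fold change -1.07, standard error 0.35, edgeR adjusted p = 0.0869). Slc38a3, a glutamine transporter, had 1383 to 2236 CPM in sham and 1048 to 1363 in CLP (-0.47, standard error 0.22, adjusted p = 0.181 from the same test). Slc38a2, a transporter of neutral amino acids, had the smallest p in CLP+DCA versus sham, with 172.5 to 338.4 CPM against 107.4 to 173.4 (0.79, standard error 0.23, adjusted p = 0.265). The urea transporters Slc14a1 and Slc14a2 had at most 6 and 0 reads.

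Of 12 regulators of the cycle, all were tested and 0 passed in any comparison, with a median of -0.14 in CLP versus sham. Cebpa, the factor of C/EBP binding in resting liver, had 415.9 to 444.0 CPM in sham and 197.4 to 382.8 in CLP (log2 fold change -0.51, standard error 0.17, edgeR adjusted p = 0.0938). Nr3c1, the glucocorticoid receptor, had 76.8 to 88.7 CPM in sham and 65.0 to 74.4 in CLP (-0.29, standard error 0.11, adjusted p = 0.124 from the same test). Cebpb, the C/EBP factor induced by inflammation, had the smallest p in CLP+DCA versus sham, at 125.8 to 209.0 against 68.7 to 106.7 CPM (0.95, standard error 0.28, adjusted p = 0.273). Foxa2, a hepatocyte pioneer factor, had it in CLP+DCA versus CLP, at 16.3 to 22.4 against 25.7 to 31.5 CPM (-0.62, standard error 0.14, adjusted p = 0.178). Hnf4a, the factor of the letters in the Otc window, had 670.8 to 765.0 CPM in sham, 687.1 to 803.4 in CLP and 634.6 to 808.3 in CLP+DCA.

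Without CLP+DCA replicate 3, more of these genes passed in CLP versus sham. Slc25a12 was higher and Gls2 lower in substrate supply. In arginine and ornithine use, 2 were higher (Aldh18a1 at 1.96 and Slc7a7 at 1.26) and 3 lower (Oat at -1.29, Agmat at -0.95 and Slc7a2 at -0.89). Aldh18a1 had 0.817 to 0.903 CPM in sham and 1.72 to 6.32 in CLP. Rhbg was lower in transport, and Cebpa, Klf15 and Sirt3 were lower among the regulators. In CLP+DCA versus CLP, Gls2 (0.84), Agmat (0.75), Rhbg (1.06) and Klf15 (0.95) were higher and Foxa2 (-0.56) lower at that setting, all on the log2 scale. The shares of all tested genes called at that setting are those given above for it.

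**Figure D4:**
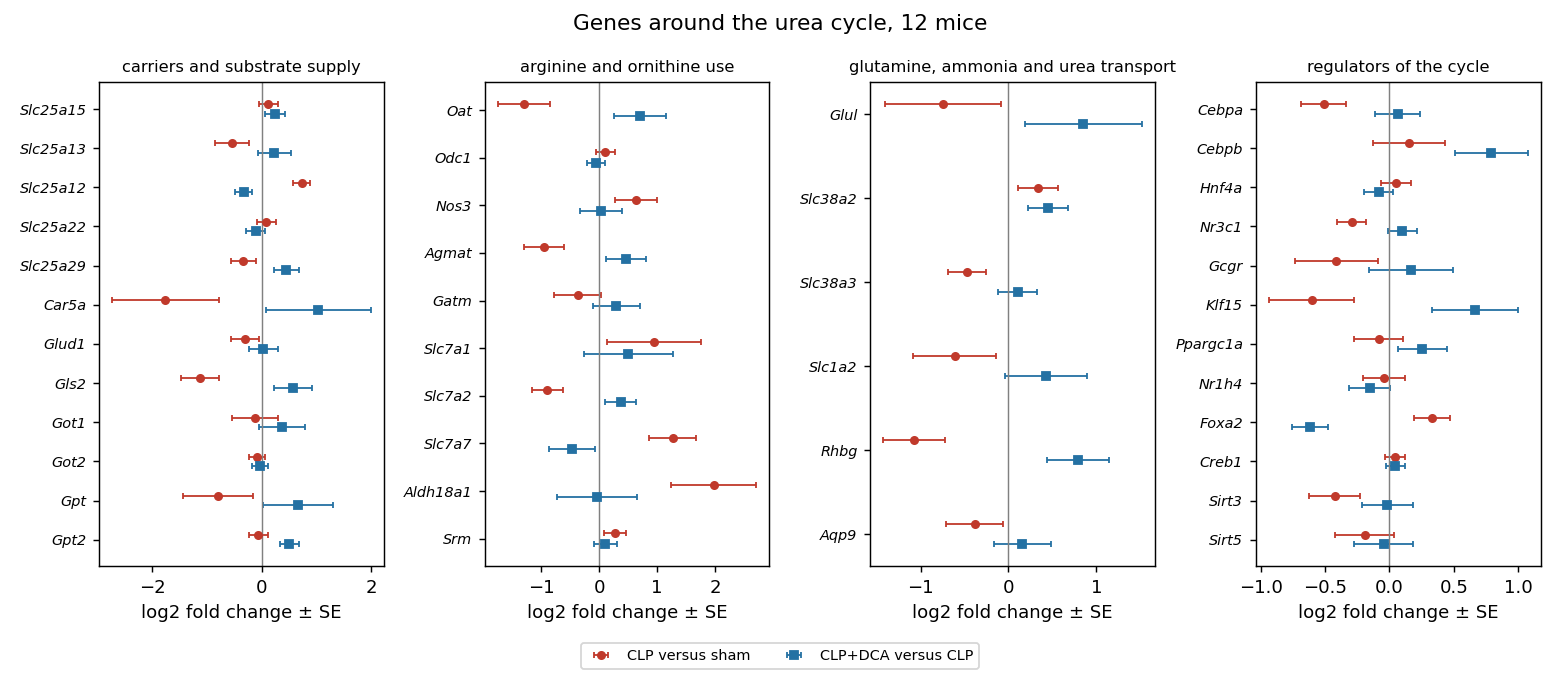
Log2 fold change ± standard error of tested genes around the cycle in CLP versus sham (circles) and CLP+DCA versus CLP (squares), from edgeR on all 12 mice; both comparisons use the same CLP mice. Slc25a12 in CLP versus sham is the 1 value past the FDR, and scales differ between panels.

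Marker lists of liver zones and cell types were measured in the same mice, and their counts in CLP versus sham stand beside the 2.78% of tested genes past the FDR. Periportal markers other than the cycle summed to 4386 to 5498 CPM in sham, 2523 to 4024 in CLP and 3008 to 6279 in CLP+DCA, and in CLP 1 of 9 (G6pc) was lower past the FDR. Pck1 was the largest part of this sum, with 2397 to 2908 CPM in sham, 1633 to 2726 in CLP and 2141 to 3990 in CLP+DCA. Hepatocyte markers summed to 59990 to 80530 CPM in sham, 31210 to 44380 in CLP and 27960 to 54430 in CLP+DCA, with 1 of 9 (Alb) lower past the FDR in CLP. In sham, Alb was most of this sum, and the other 8 summed to 20330 to 22050 CPM in sham, 15890 to 20540 in CLP and 12440 to 21120 in CLP+DCA. Apob (0.26) and Tdo2 (0.05) had log2 fold changes above 0 in CLP versus sham, without passing the test. Pericentral markers summed to 8609 to 11960 CPM in sham and 9188 and 10550 in CLP replicates 1 and 3, but to 3229 and 4418 in CLP replicates 2 and 4 and 1937 in CLP+DCA replicate 3, the mice with the lowest Otc. In sham, Cyp2e1 was most of this sum (5117 to 8014 CPM). In CLP replicates 2 and 4, Cyp2e1 (1739 and 2658), Cyp1a2, Rgn and Rnase4 lay below all sham mice. Cyp1a2 (30.0 and 68.0, lowest sham mouse 198.4) and Rgn (333.9 and 448.9, lowest sham mouse 689.7) did so in CLP replicates 1 and 3 as well. Axin2 (4.3 and 4.4, sham 3.64 to 7.95) and Tbx3 (18.0 and 26.0, sham 15.1 to 42.0) lay inside the sham range. Lgr5 lay below the sham range (4.02 to 9.15) in CLP replicate 2 (3.255) and inside it in replicate 4 (4.445). Nkd1 lay inside its sham range (2.19 to 3.26) in CLP replicate 2 (2.20) and below it in replicate 4 (1.89). In CLP+DCA replicate 3, Tbx3 (17.2) and Nkd1 (2.41) lay inside the sham range and Axin2 (2.7) and Lgr5 (1.46) below. None of the markers of these 3 lists was at 0 reads in any mouse.

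Neutrophil markers summed to 4.91 to 6.21 CPM in sham and 27.05 to 35.04 in CLP, with 1 of 7 tested (Retnlg) higher past the FDR. Most of the sum was S100a8 and S100a9, and the other 6 genes summed to 1.49 to 1.90 CPM in sham and 4.79 to 7.21 in CLP. Ly6g, a surface marker of mature neutrophils, stood at -0.78 on the log2 scale (standard error 0.32, edgeR adjusted p = 0.136). In CLP+DCA they summed to 46.5 CPM in replicate 3 and 4.25 to 10.9 in the others, and at most 1 of the 8 was at 0 reads in any mouse (Ltf in 3 sham mice, Mpo in 5 mice of the other groups). Markers of macrophages (119.4 to 197.1 CPM in sham and 186.1 to 244.0 in CLP), of endothelium (81.8 to 103.8 and 96.9 to 120.0) and of stellate cells with cholangiocytes (53.2 to 84.0 and 114.2 to 168.2) had 0 genes past the FDR in the 3 comparisons of all 12 mice, as had those of lymphocytes, of which 2 of 6 were tested (1.34 to 2.94 and 0.404 to 1.09). In CLP versus sham, 9 of 10 macrophage and 3 of 5 endothelial markers had log2 fold changes above 0. Marco had 6.14 to 19.4 CPM in sham and 31.1 to 87.7 in CLP. Clec4f, the largest macrophage marker in sham, had 46.0 to 73.7 and 38.5 to 63.7. Of the endothelial list, Lyve1 had 2.94 to 6.48 and 12.7 to 37.05 CPM and Pecam1 7.14 to 9.18 and 13.1 to 20.9. Kdr, at 18.9 to 21.65 and 11.6 to 20.2, overlapped. In CLP+DCA the sums were 152.9 to 287.1 for macrophages, 78.9 to 116.2 for endothelium, 71.0 to 243.8 for stellate cells with cholangiocytes and 0.569 to 1.95 for lymphocytes. Markers at 0 reads included Retnla of the macrophage list, in 3 sham mice, and Cd79a of the lymphocyte list, in CLP replicate 2 and CLP+DCA replicate 3. Without CLP+DCA replicate 3, more markers passed the FDR in CLP versus sham, where 23.8% of tested genes did. These were 4 of 9 periportal, 2 of 8 pericentral, 5 of 9 hepatocyte and 3 of 4 lymphocyte markers, all lower in CLP. Higher in CLP were 5 of 7 neutrophil, 3 of 10 macrophage, 2 of 5 endothelial and 5 of 6 stellate cell and cholangiocyte markers. In CLP+DCA versus CLP at that setting, where 4.64% of tested genes passed, 3 periportal markers were higher, and 4 neutrophil, 1 macrophage, 1 endothelial and 2 stellate cell and cholangiocyte markers lower. The part of these cell types in the values of the urea cycle genes was not tested.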

How the data were processed

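Poly(A)-enriched TruSeq v2 libraries of 12 livers were sequenced once as paired ends of 100 bp, aligned by the authors to mm10 with STAR 2.5 and counted per gene with featureCounts (Subread 1.5.0-p1), per the paper and the submitters' processing notes. The authors deposited the resulting read counts, unnormalized, and every sample column was used. The gene annotation and strand setting are not given in the sources used here. Reads lack molecular identifiers, so counting error is a lower limit and the spread between mice is given throughout.

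Counts were filtered (filterByExpr, minimum count 10), TMM-normalized and fitted with edgeR 4.0.16 (robust quasi-likelihood) in R 4.3.3. The standard error is the log2 fold change divided by the square root of F. Log2 CPM have a prior count of 2, and ratios add 0.5 to each count. DESeq2 1.42.0 was an alternative, as were RLE, library size alone, no filter, the 8 mice compared, a replicate block and leaving out each mouse. The fits were checked on simulated data first. Transcripts were aligned with BLAST 2.17.0, and exon lengths are unions over protein-coding transcripts of GENCODE M21.

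Members and lists were chosen with earlier results of these data known. Named are all 6 members, and of each other list the genes past the FDR and the 2 of smallest p per comparison, with the exceptions of Slc25a13, Agmat, Klf15, Sirt3, Hnf4a and the untested genes, which were added after their values were seen. Markers of zones and cell types that did not pass the FDR were also named after their values were seen. For each member, the 5 nearest genes have at least 5 CPM. Some genes of these lists are not reported here by name, although list counts and sums include them.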

Additional observations from a re-analysis of the deposited data

Results flagged for a closer look

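In CLP+DCA, Otc of replicate 3 lay far from the other mice of its group: its gap to the nearest of them was 0.875 of the group's range of log2 CPM, above the 95% critical value for 4 samples. The 1 read on Ass1 of the same mouse gave a gap of 0.958 of the range. Asl of that mouse, at 0.810, and Cps1, at 0.691, were below the critical value. Chance flags about 1 in 20 groups, and 18 groups were examined here.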

How the results depend on the processing

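In CLP versus sham, 0 of the 6 genes passed the FDR with all 12 mice in edgeR, where 2.78% of tested genes did. The count was 2 with DESeq2 on all 12 mice (13.4% of tested genes). It was 1 with edgeR on the 8 mice compared (18.3%) and 4 with DESeq2 on these 8 (23.2%). Leaving out 1 mouse at a time gave 0 to 3 of 6. The count was 3 without CLP+DCA replicate 3, where 23.8% of tested genes passed. It was 1 (Arg1, edgeR adjusted p = 0.0499) without CLP replicate 3, where 7.46% passed, and 0 otherwise. In CLP+DCA versus CLP the count was 0, and 0 to 1 with 1 mouse left out (Asl without CLP+DCA replicate 3, where 4.64% of tested genes passed). In CLP+DCA versus sham it was 0 at every setting. No ratio to Arg1 passed an adjusted value of 0.05 at any setting, but with 3 mice in a group the smallest exact p is 0.0571, and with 4 pairs 0.125, so that these tests could not pass. Over all genes, the 367 calls in CLP versus sham became 1906 and 3422 with DESeq2 on 12 and 8 mice, 2387 with edgeR on 8 mice, 209 with library size alone, 122 without the filter and 10 to 3157 with 1 mouse left out. With the replicate block they became 46, with 0 of the 6 genes in each comparison. Same-numbered mice did not deviate together (correlations of -0.46 to 0.55, over 0.1 in 1 of 12 pairs), so the numbers were not taken to pair the mice.

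Signs turned in 3 differences, none of which passed its test. Asl in CLP+DCA versus sham was 0.076 without sham replicate 4 and 0.22 without CLP+DCA replicate 3, in a range of -0.16 to 0.22 with 1 mouse left out. Cps1 in CLP+DCA versus CLP was -0.012 and -0.055 without CLP+DCA replicates 1 and 4, in a range of -0.055 to 0.55. The ratio of Cps1 to Arg1 in that comparison was -0.044 without CLP replicate 2, -0.042 without CLP+DCA replicate 1 and -0.15 without CLP+DCA replicate 4, in a range of -0.15 to 0.92. The cause was not tested. The parts of depth and of the spread between mice in these values were not tested, and values of Ass1 rest on few reads.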
